A study of Mus musculus and Mus musculus
Rattus norvegicus with 30 samples.

Results

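The expression of the mouse allele was compared with that of the rat allele within the same RMES cells after induction of Cdx2. RMES cells are embryonic stem cells made by fusing haploid mouse and haploid rat ESCs. By design each nucleus carries 1 mouse and 1 rat copy of a gene, and both copies meet the same transcription factors. Copy number was not measured in these libraries. The comparison rested on 2 of the 30 samples of the series, the RNA-seq library of RMES cells overexpressing mouse Cdx2 (mCdx2-OE) and that of RMES cells overexpressing rat Cdx2 (rCdx2-OE), each of which gave 1 column of mouse (mm10) and 1 column of rat (rn6) read counts. Genes were paired where both tables listed the identical gene name. Of 34923 mouse and 25245 rat genes listed, 15933 were paired. Cdx2 itself was left out, no mitochondrial gene was among the pairs, and 13396 of the remaining 15932 genes passed the filter on low counts.

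Both Cdx2 transgenes were Flag-tagged, delivered by lentivirus and switched on with doxycycline (DOX) through a Tet-On system, in cells kept in a serum-free medium with LIF and the inhibitors PD0325901 and Chir99021. The 2 libraries labelled WT RMES served as the background without induction, and the labels do not say whether these cells carried a transgene. The study had a single library for each transgene, and mCdx2-OE and rCdx2-OE were taken as replicates as in its methods. The 2 transgenes differ in protein sequence and were put into separate stable lines. Nothing states that the 2 WT libraries came from separate cultures. The p-values therefore measure the allele ratio only against how much it varied between the libraries at hand, a spread estimated with the help of all genes tested.

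Cdx2 is a homeobox transcription factor of the caudal family. It marks the trophectoderm, the outer layer of the blastocyst that gives rise to the placenta, and later patterns the posterior body axis and the intestinal epithelium together with Hox genes. Forced expression of Cdx2 moves ESCs toward trophoblast, with loss of the pluripotency programme held by Pou5f1, Sox2 and Nanog. The 14 marker lists covering these lineages, the 4 Hox clusters, and neural and feeder fibroblast cells as cell types not sought, held 200 genes. Of these 16 were not paired (among them T, Zfp42 and Hoxa9), 40 were paired but too low to test, and 144 were tested.

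The induced libraries held 36166038 and 36283079 mouse counts and 35246629 and 35249756 rat counts, and the WT libraries held 37609210 and 41418817 mouse and 29453412 and 32200333 rat counts. The transgene checked the labels: of all Cdx2 counts, 95.8% were mouse in mCdx2-OE and 99.5% were rat in rCdx2-OE. In the WT libraries 74.4% and 74.7% of Cdx2 counts were rat. These libraries held 4187 and 4541 mouse and 12384 and 13178 rat Cdx2 counts. In mCdx2-OE there were 40590 mouse and 1770 rat counts, and in rCdx2-OE 186 and 33680. WT was thus not a background free of Cdx2. The WT and induced libraries stood apart in features other than the transgene. Mitochondrial transcripts were rat in the induced libraries, at 70440 and 68842 CPM (counts scaled to the total of both alleles) against 159 and 131 for mouse, and mouse in the WT libraries, at 12823 and 14712 CPM against 26.0 and 33.9 for rat. Genes of mouse chromosome 16 also had a median log2 mouse over rat ratio of 0.82 and 0.84 in WT and of 0.12 and 0.07 after induction. Induction and a difference between the cell lines or passages therefore cannot be told apart in any comparison of induced with WT libraries, whereas the comparison of alleles within the induced libraries does not use WT.

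**Figure D1:**
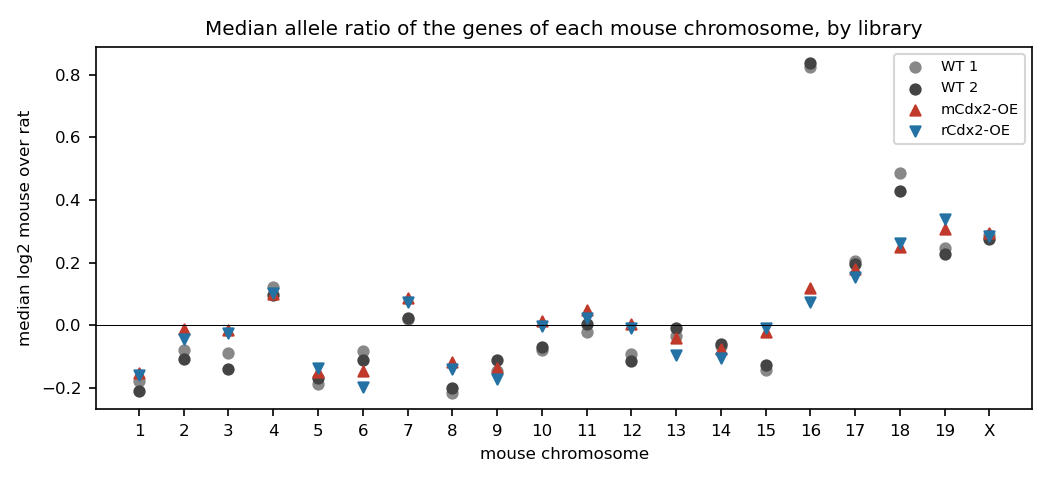
Median log2 ratio of the mouse over the rat level (y axis) over the tested genes of each mouse chromosome (x axis), with 1 symbol for each of the 4 RMES libraries. Chromosome 16 lies at 0.82 and 0.84 in the WT libraries and at 0.12 and 0.07 in the induced libraries, and chromosome 18 at 0.49 and 0.43 against 0.25 and 0.26.

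Levels are given as counts divided by the length that each table lists for the gene in kilobases, and by that column's total after TMM scaling, in the unit of CPM per kilobase, which sets the typical gene equal between alleles. A gene was called mouse-higher or rat-higher where edgeR's quasi-likelihood test with the library as a block gave a Benjamini-Hochberg adjusted p under 0.05 and the levels differed by over 2-fold. After induction 2588 genes were mouse-higher, which is 19.3% of those tested, and 2543 were rat-higher, which is 19.0%. The 2 libraries gave nearly the same ratios, with a Pearson r of 0.978 across 12056 genes, which are not independent replicates. Of the 144 list members tested, 51 were mouse-higher and 29 were rat-higher.

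The listed mouse length was a median of 1.52 times the rat length. Calls followed this ratio. Of genes whose mouse model was over 4 times longer, 49.0% were rat-higher and 12.7% mouse-higher, around a median log2 ratio of -0.97. Of the 3820 genes of similar length, 28.2% were mouse-higher and 11.5% rat-higher, around a median of 0.48. The median of a list therefore also depends on the lengths of its members. The scaling between alleles mattered together with the division by length. With 1 common total per library for both alleles, and the division kept, 1687 genes were mouse-higher and 4427 rat-higher. The mouse share of the calls was 27.6% against 50.4%. In that fit no scaling offset the mostly longer mouse lengths. Before division, counts on the paired genes were higher for mouse, at 33035159 against 28418676 in mCdx2-OE and 32876072 against 28530920 in rCdx2-OE. Calls made in the same direction without the division by length and with the common total, a condition added after seeing the data, numbered 1522 mouse-higher and 1440 rat-higher. These are termed held calls, and among the list members 33 of the 51 and 27 of the 29 were held. The common total put the median log2 ratio over all genes at -0.53, so it weighed against mouse-higher calls alone. It kept 1687 mouse-higher and all 2543 rat-higher calls, while leaving out the division by length kept 1844 and 1440. The held numbers of the 2 directions are therefore not a like comparison.

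**Figure D2:**
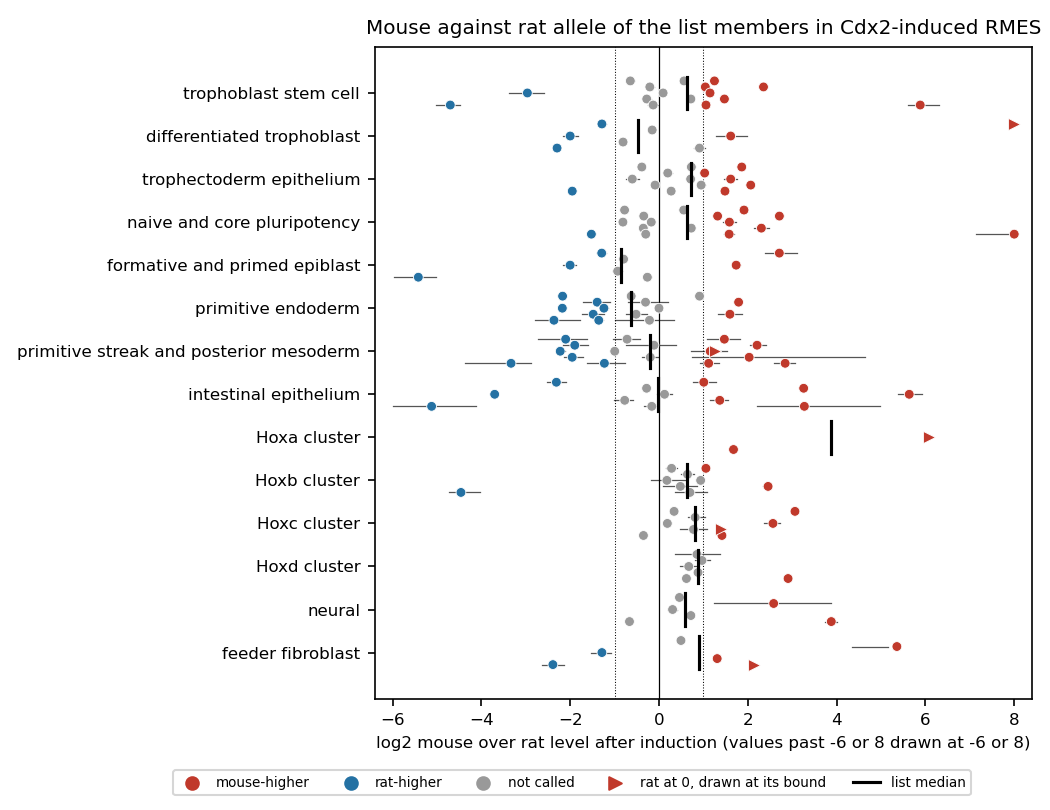
Log2 ratio of the mouse over the rat level after induction (x axis) of each tested member of the 14 lists (y axis), with thin lines joining the values of the 2 libraries and black bars at list medians. Points are spread on both sides of 0 within nearly every lineage list, with medians from -0.86 for formative and primed epiblast to 0.90 for feeder fibroblast, and that of the Hoxa cluster, 3.87, rests on 2 genes, of which Hoxa7 is drawn at its lower bound.

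Trophoblast stem cell (TSC) genes were split between the alleles. Of the 16 tested, 7 were mouse-higher, 2 were rat-higher, and the median log2 ratio was 0.64, against -0.00 over all genes tested. With the common total the count turned to 2 and 3, and without the division by length to 4 and 4. With calls held in all 3 settings there were 2 in each direction, Elf3 and Ascl2 for mouse and Eomes and Elf5 for rat. The other 5 mouse-higher genes (Tfap2a, Ets2, Tead4, Msx2 and Wnt7b) lay between 1.04 and 1.47 on the log2 scale.

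Eomes, a T-box factor needed for trophoblast stem cells (chr9:118478212-118486132, GRCm38), was expressed mostly from the rat genome. Its mouse and rat levels were 1.83 and 11.0 in mCdx2-OE and 1.20 and 12.5 in rCdx2-OE. Both rat values exceeded both mouse values, and the log2 ratio was -2.96 ± 0.12 (SE, n = 2 libraries). Elf5, an ETS factor of the same network, followed at -4.70 ± 0.39 with far lower levels of 0.119 and 0.0459 for mouse and 2.71 and 1.57 for rat. The mouse length of Elf5 was 7.71 times the rat length, and without the division its log2 ratio was -2.53.

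Elf3, an epithelial ETS factor (chr1:135253575-135258568), was the most abundant mouse-biased factor of the list. It stood at 172 mouse and 33.9 rat in mCdx2-OE and at 195 and 37.9 in rCdx2-OE, a log2 ratio of 2.35 ± 0.04. Ascl2, a basic helix-loop-helix factor of the ectoplacental lineage that lies in an imprinted region (chr7:142966829-142969264), was nearly silent on the rat side, with 44 and 20 rat counts against 1546 and 1149 mouse counts. Its log2 ratio was 5.88 ± 0.14 after induction and 6.37 ± 0.29 in WT, and the difference between states missed the threshold (log2 interaction -0.41 ± 0.52).

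Gata2, Tfap2c and Gata3, which the TSC list also holds, were not called after induction. Gata2, a GATA factor of trophoblast, stood at 32.9 mouse and 29.3 rat in mCdx2-OE and at 40.0 and 39.4 in rCdx2-OE. For Tfap2c, an AP-2 factor that acts early in trophectoderm, the levels were 83.9 and 102, and 79.7 and 86.8. Gata3, a trophectoderm factor like Gata2, was at 5.19 and 3.34, and at 6.57 and 3.79. The allele difference of none of these 3 genes reached 2-fold, with log2 ratios of 0.09 ± 0.04, -0.21 ± 0.04 and 0.72 ± 0.11.

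The ratios after induction were set beside those of the WT libraries, fitted the same way, in which 24.3% of 12242 genes were mouse-higher and 24.1% rat-higher. Whether the ratio differed between the states was tested as the allele by induction interaction in a joint fit of the 4 libraries, called at an adjusted p under 0.05 at any fold. Across all genes 5052 of 13604 moved toward mouse (37.1%) and 3656 toward rat (26.9%), around a median log2 interaction of 0.10. This split depended on the scaling. A common total gave 3547 toward mouse and 4962 toward rat around a median of -0.09, and leaving out WT library 1 or 2 gave 3054 and 2986 toward mouse. Interactions no larger than this shift of the median carry no direction.

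In WT Gata2, Tfap2c and Gata3 were expressed mostly from the mouse allele. Gata3 was low there, with 36 and 58 mouse counts against 2 and 4 rat counts. The mouse share of the Gata2 level was 98.3% and 96.8% in WT and 52.9% and 50.4% after induction. For Tfap2c it was 91.7% and 91.9% against 45.0% and 47.9%, and for Gata3 94.2% and 92.9% against 60.8% and 63.4%. The shares of the WT and of the induced libraries did not overlap for any of them. How many of all genes show the same was not counted, and 26.9% of all genes were called toward rat by the interaction. The interaction was -5.15 ± 0.13 for Gata2, -3.61 ± 0.06 for Tfap2c and -2.97 ± 0.49 for Gata3 on the log2 scale, and each passed the threshold. Over the whole list 8 genes moved toward the rat allele and 2, Tead4 and Msx2, toward the mouse allele. The calls of Eomes and Ets2 toward rat were lost without rCdx2-OE and without mCdx2-OE, respectively. Ets2, with an interaction of -0.21 ± 0.08, lies on mouse chromosome 16, whose median ratio was also lower after induction than in WT. The mouse share of the summed level of the list was 64.0% and 64.8% after induction and 85.3% and 85.1% in WT. Cdh2, the N-cadherin gene that the study names among TSC markers, was at 5.12 mouse and 2.69 rat in mCdx2-OE and at 4.90 and 2.50 in rCdx2-OE, and its mouse share of 65.5% and 66.2% compared with 88.2% and 88.7% in WT.

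**Figure D3:**
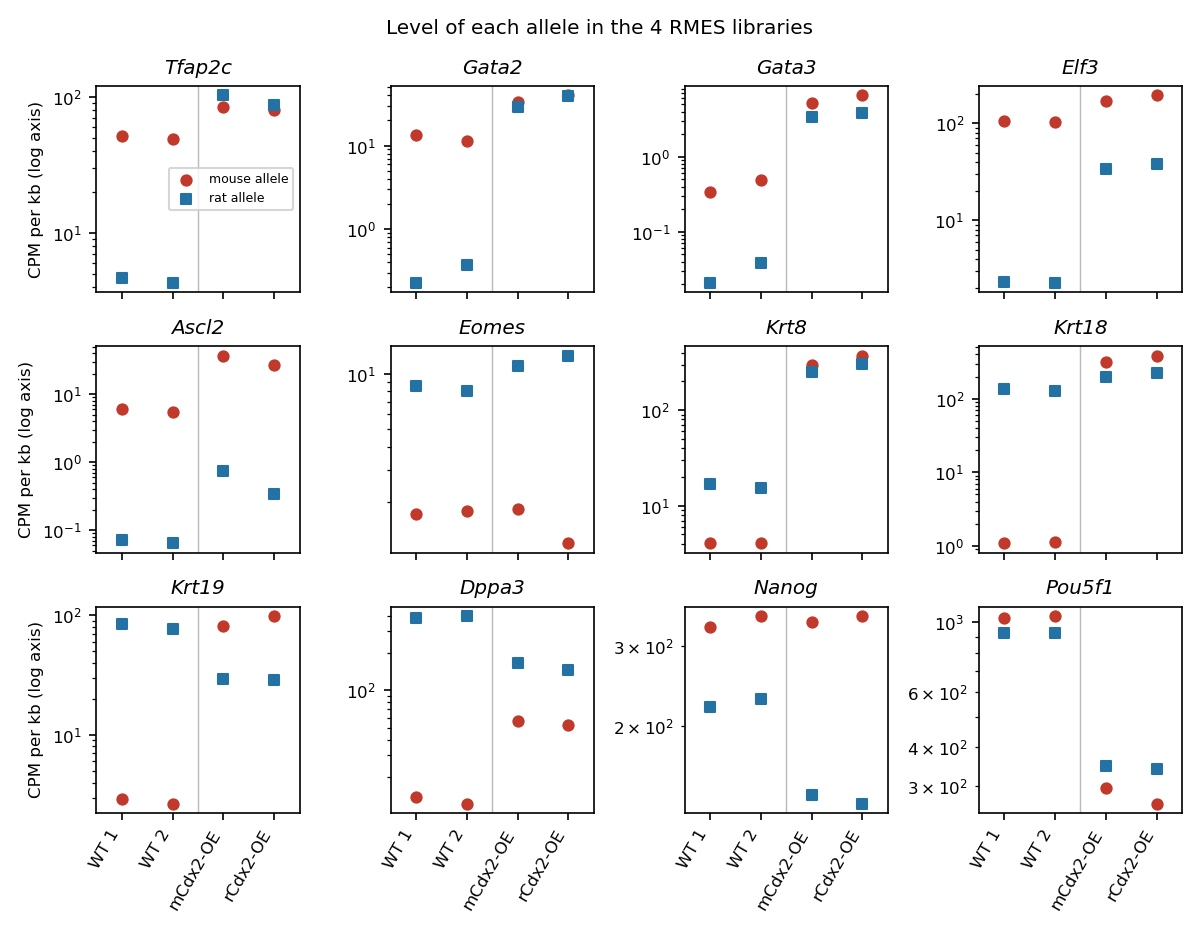
Levels of the mouse and the rat allele (CPM per kilobase, log axis) of selected lineage genes in each of the 4 RMES libraries. For Gata2, mouse and rat are 32.9 and 29.3 in mCdx2-OE and 13.3 and 0.228 in the first WT library, and for Krt18 they are 315 and 195 against 1.09 and 135.

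Trophectoderm epithelium genes, which build the keratin network and the tight junctions of this layer, held more mouse-higher than rat-higher members after induction. Of 14 genes, 5 were mouse-higher and 1, the lectin gene Lgals3 at -1.95 ± 0.08, was rat-higher. The list median was 0.72, or 0.19 with the common total and 0.21 without the division by length. In the fit of genes of similar length, which 10 members entered, it was 0.35, with 2 mouse-higher and 0 rat-higher. With all genes fitted together, those of similar length had a median of 0.48. The held calls were Krt19, Cldn4 and Aqp3 for mouse and Lgals3 for rat. The tight junction gene Cldn4 was at 158 mouse and 44.4 rat in mCdx2-OE and at 173 and 46.4 in rCdx2-OE. The water and glycerol channel gene Aqp3 was at 65.4 and 14.9, and at 61.6 and 15.4. Cldn6, another claudin gene, was mouse-higher at 1.49 ± 0.06 and fell under 2-fold with the common total.

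The keratins leaned to the rat allele in WT and lay closer to the mouse allele after induction. Keratins 8 and 18 pair to form the filaments of simple epithelia. In WT the Krt18 level (chr15:102028180-102032027) was 1.09 and 1.13 for mouse and 135 and 128 for rat. After induction it was 315 and 384 for mouse and 195 and 225 for rat. The mouse share thus lay at 0.8% and 0.9% in WT and at 61.7% and 63.0% after induction, and the log2 interaction of 7.69 ± 0.07 was past the threshold. Krt8 had mouse shares of 19.7% and 20.9% in WT and of 54.3% and 55.1% after induction. Krt19, a keratin of simple epithelia without a fixed partner (chr11:100140810-100148665), was rat-higher in WT, with levels of 2.91 and 2.67 for mouse and 84.7 and 76.5 for rat. It was mouse-higher after induction, with 81.7 and 97.9 for mouse and 29.5 and 29.0 for rat, and its log2 interaction was 6.55 ± 0.10. Krt7 moved the same way, from shares of 18.4% and 18.7% to 55.0% and 52.0%. In all, 10 of the 14 genes were called toward mouse and 4 toward rat. The call of Atp1b1 toward mouse was lost with the common total and without either WT library, and that of Aqp3 without WT library 2. The interaction of Epcam toward rat, at -0.11 ± 0.04, was no larger than the shift of the median and carries no direction.

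Differentiated trophoblast genes were divided as well. Of 8 tested, 2 were mouse-higher, 3 were rat-higher, and the median was -0.48. Plac1, an X-linked placental gene (chrX:53069995-53240111), had 1714 and 1586 mouse counts and no rat count in either induced library, which is at least 298-fold higher for mouse against 3 counts per library. No rat count was present in the WT libraries either, so a silent rat gene and a rat annotation or alignment that misses its reads cannot be told apart. Cdkn1c, a cell cycle inhibitor of an imprinted region, was rat-higher at -1.29 ± 0.07, and Phlda2 of the same region stood at 0.91 ± 0.05. Gcm1, the factor that starts syncytiotrophoblast formation, was at 10.7 mouse and 11.9 rat in mCdx2-OE and at 15.0 and 16.7 in rCdx2-OE, less than 2-fold apart in each.

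Cyp11a1, the enzyme that starts steroid synthesis from cholesterol, was mouse-higher in WT and rat-higher after induction. It had 94 and 83 mouse counts and 270 and 250 rat counts after induction, against 54 and 51 mouse and 3 and 6 rat counts in WT. The log2 ratio was -2.29 ± 0.18 after induction and 2.67 ± 0.48 in WT, with an interaction of -4.88 ± 0.46. The giant cell and spongiotrophoblast genes Prl3d1, Tpbpa and Ctsq had at most 1 count on either allele.

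Naive and core pluripotency genes had more mouse-higher than rat-higher members. Of 16 genes, 7 were mouse-higher, 1 was rat-higher, and the median was 0.64, or 0.11 with the common total and 0.17 without the division by length. Among the 6 members of similar length it was -0.29, with 1 mouse-higher and 2 rat-higher. The core factors were close to balance or moderately mouse-biased. Pou5f1 was at 296 mouse and 347 rat in mCdx2-OE and at 263 and 339 in rCdx2-OE. Sox2 was at 134 and 83.7, and at 128 and 74.5. Nanog was at 339 and 141, and at 350 and 135, a log2 ratio of 1.32 ± 0.02 that fell to 0.79 with the common total.

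The naive factors differed among themselves. Klf2 and Tbx3 leaned to rat at -0.35 ± 0.04 and -0.77 ± 0.02 and were not called. Esrrb, an orphan nuclear receptor of naive ESCs, was at 122 mouse in both libraries and at 18.6 and 18.7 for rat, a log2 ratio of 2.71 ± 0.03. Its mouse length was 4.64 times the rat length, and without the division the ratio was larger, at 4.17. Klf4, Klf5 and Tfcp2l1 were mouse-higher at 1.59 ± 0.05, 1.58 ± 0.05 and 1.91 ± 0.02, and Klf4 and Klf5 had nearly the same ratio in WT, at 1.59 and 1.56. Nr0b1, an X-linked nuclear receptor gene, had 446 and 342 mouse counts against 4 and 0 rat counts.

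Prdm14 and Dppa3 differed between the states. Prdm14, a repressor of the primed state, was at 35.4 mouse and 8.06 rat in mCdx2-OE and at 39.5 and 7.07 in rCdx2-OE, but at 21.4 and 28.8, and 22.5 and 29.8 in WT. Its interaction was 2.81 ± 0.09. Dppa3, a maternal factor that protects DNA methylation in the early embryo, was the rat-higher gene of the list, with mouse shares of 25.3% and 26.4% after induction and of 3.4% and 3.0% in WT. Of the list, 7 genes moved toward mouse and 4 toward rat, and the split was 6 and 8 with the common total. Klf5, among the 7, turned direction without rCdx2-OE or either WT library.

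Formative and primed epiblast genes were called in both directions. Of 8 genes, 2 were mouse-higher and 3 were rat-higher, with a median of -0.86 that was -0.26 without the division by length and 0.74 over the 2 genes of similar length. The genes at the middle of the list, Dnmt3a at -0.93 and Tdgf1 at -0.80, were not called, and both ratios turned to mouse without the division, at 0.26 and 0.80. Lef1, a transcriptional partner of beta-catenin (chr3:131110471-131224356), was at 0.291 and 0.605 for mouse and at 18.4 and 19.8 for rat, a log2 ratio of -5.42 ± 0.11. The zinc finger gene Zic2 was rat-higher with 819 and 487 mouse counts against 2370 and 1748 rat counts, and its neighbour Zic5 at -1.29 ± 0.08, which fell under 2-fold without the division by length. On the mouse side stood Dnmt3b, a de novo DNA methyltransferase, at 1.74 ± 0.05, and the weakly expressed Sall2 at 2.71 ± 0.24. The summed level of the list is not compared, since Tdgf1, whose mouse length is 5.11 times its rat length, took most of it. Fgf5, Otx2 and Cer1, defining genes of this stage, had at most 6 counts on either allele after induction.

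Primitive endoderm genes, which include the basement membrane proteins that this layer secretes, held the largest number of rat-higher members. Of 15 genes, 7 were rat-higher, 2 were mouse-higher, and the median was -0.63. The laminin alpha 1 gene Lama1 was at 6.30 mouse and 27.4 rat in mCdx2-OE and at 6.69 and 31.4 in rCdx2-OE. For the laminin beta 1 gene Lamb1 the levels were 6.07 and 26.0, and 6.47 and 30.6. Their partner, the laminin gamma 1 gene Lamc1, went the other way within 2-fold, at 115 and 59.9, and 129 and 70.3. The 3 chains assemble into 1 laminin trimer.

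The collagen IV genes Col4a1 and Col4a2, which neighbour each other, were rat-higher at -1.24 ± 0.05 and -1.36 ± 0.05. Sparc, a matrix glycoprotein gene, was balanced, at 153 mouse and 147 rat in mCdx2-OE and at 191 and 198 in rCdx2-OE. The transcription factors of the list were expressed weakly. Gata6 was mouse-higher at 1.79 ± 0.29 and Gata4 with 170 and 158 mouse counts against 57 and 78 rat counts. Sox17 was rat-higher at -2.36 ± 0.44, as was Dab2, which encodes an endocytic adaptor, at -1.48 ± 0.15.

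Lama1 and Lamb1 had nearly the same ratio after induction but not in WT. Lama1 was balanced in WT, with mouse shares of 48.6% and 48.7%, and moved toward rat with an interaction of -2.01 ± 0.04. In WT the mouse share of Lamb1 was 2.2% in each library, and it moved toward mouse with an interaction of 3.38 ± 0.06.

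The posterior genes, which Cdx factors regulate in the embryo, did not share a direction. Among 17 tested genes of primitive streak and posterior mesoderm, 7 were mouse-higher and 6 rat-higher, with a median of -0.20, and 3 and 6 of these calls were held, while 3 and 8 were called with the common total. The mouse-higher calls of Tbx6, Mesp2 and Snai1 were lost without rCdx2-OE and that of Lhx1 without mCdx2-OE. Cdx1, the paralogue of Cdx2, was at 20.2 mouse and 4.90 rat in mCdx2-OE and at 16.8 and 3.16 in rCdx2-OE, a log2 ratio of 2.21 ± 0.12. Cdx4, the X-linked paralogue, had 16 to 44 counts per allele and was rat-higher at -1.23 ± 0.42, a call that was lost without mCdx2-OE (-0.68) and with DESeq2 (adjusted p = 0.176). Bmp4, a signal of posterior mesoderm, was at 2.19 and 11.0, and at 2.43 and 10.6. Nkx1-2, a homeobox gene of the caudal epiblast, was rat-higher at -3.33 ± 0.35, although its 36 and 6 mouse counts differed widely between the libraries. The Wnt ligand genes parted. Wnt8a was mouse-higher at 2.84 ± 0.33 and Wnt3a rat-higher at -2.10 ± 0.38. Wnt8a was rat-higher in WT at -1.66 ± 0.39, and its interaction of 4.59 ± 0.52 passed the threshold.

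Intestinal genes were low apart from Gpa33, which encodes an antigen of the intestinal epithelial surface. Gpa33 was at 35.8 mouse and 0.847 rat in mCdx2-OE and at 32.2 and 0.518 in rCdx2-OE, and it took most of the summed level of the list. Vil1, the villin gene of the brush border, was at 0.819 and 4.73, and at 1.01 and 4.35. The intestinal stem cell receptor gene Lgr5 was rat-higher at -3.70 ± 0.26 and the keratin gene Krt20 mouse-higher. Krt20 had 91 and 137 mouse counts against 20 and 4 rat counts, and its log2 ratio of 3.27 ± 0.38 was 5.18 without mCdx2-OE. Cdh17, a cadherin gene induced by Cdx2 in the intestine, had 2 and 0 mouse counts and 50 and 39 rat counts, a ratio of 38.5 in favour of rat with a 95% counting interval of 10.3 to 323. Fabp1, Fabp2 and Slc26a3, genes of mature enterocytes, had at most 2 counts on either allele. Of 12 genes tested, 5 were mouse-higher and 3 rat-higher, and with the common total 3 and 4, and 2 of the 5 mouse-higher calls were lost without rCdx2-OE.

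Hox genes were mouse-higher or not called, apart from Hoxb2. Of the 26 tested in the 4 clusters, 9 were mouse-higher and Hoxb2 was rat-higher, with 17 and 25 rat counts against 1 and 3 mouse counts (ratio 23.7, 95% counting interval 8.60 to 91.0). The mouse-higher call of Hoxb5 was lost without either induced library. The medians were 0.64 for Hoxb, 0.81 for Hoxc and 0.87 for Hoxd. With the common total they were 0.11, 0.28 and 0.34, and without the division by length 1.16, 1.02 and 0.55. Among genes of similar length they were 0.32 over 4 Hoxc genes and 0.44 over 4 Hoxd genes. Where all genes were fitted together, those of similar length had a median of 0.48. Of the 9 Hoxb genes tested, 1 was mouse-higher with the common total and 5 without the division. Hoxa7 (chr6:52214491-52221854) had 240 and 150 mouse counts and no rat count after induction, which is at least 67.4-fold higher for mouse, and 2151 and 2620 mouse against 18 and 7 rat counts in WT. Hoxd4 was at 6.36 mouse and 0.846 rat in mCdx2-OE and at 9.61 and 1.28 in rCdx2-OE, a log2 ratio of 2.91 ± 0.14. The gene model of Hoxd4 overlaps that of Hoxd3, and that of Hoxc5 overlaps Hoxc6, Hoxc8, Hoxc9 and Hoxc10. Reads from shared exons could therefore be missing from the mouse counts of these genes.

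The Hoxc cluster was mouse-higher throughout in WT and less so after induction. All 9 genes were mouse-higher in WT, with a median of 3.28, and 4 were after induction. A total of 7 moved toward rat, of which the call of Hoxc6 was lost with DESeq2 and without rCdx2-OE or either WT library. Hoxc10 was at 1.79 mouse and 0.685 rat in mCdx2-OE and at 2.50 and 0.915 in rCdx2-OE, but at 5.45 and 0.231, and 5.17 and 0.141 in WT, with an interaction of -3.33 ± 0.38. Hoxc13, at the end of the cluster, stayed at mouse shares of 89.6% and 89.1% after induction and 93.9% and 92.1% in WT. The mouse share of the summed level of the cluster was 68.5% and 65.4% after induction and 92.5% and 93.7% in WT.

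**Figure D4:**
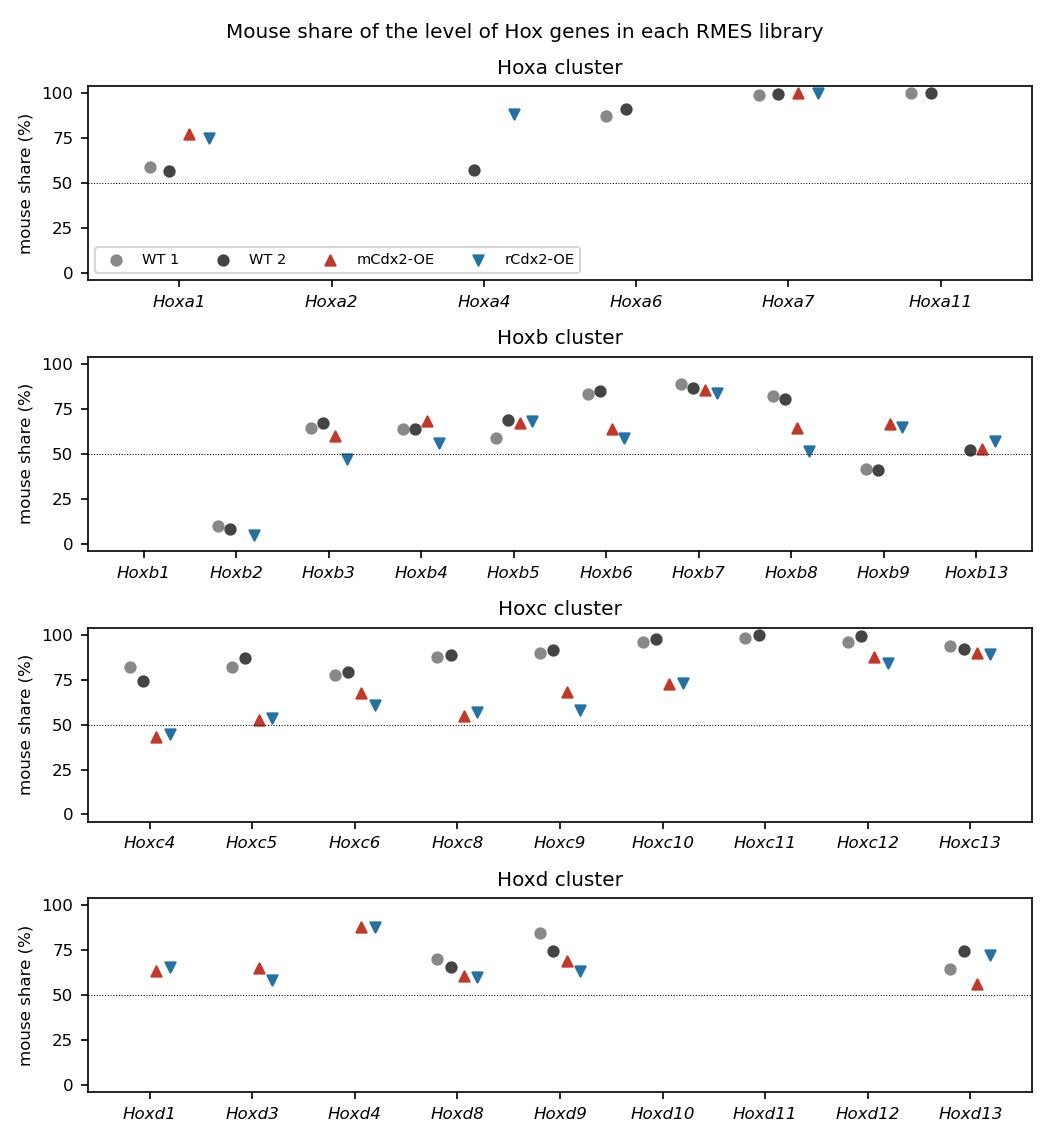
Mouse share of the level in percent (y axis) for each paired Hox gene in cluster order (x axis), with 1 symbol for each of the 4 RMES libraries, drawn where a library held at least 20 counts over both alleles. The Hoxc genes lie near the top in WT and lower after induction, with Hoxc10 at 95.9% and 97.4% in WT and at 72.3% and 73.2% after induction.

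Cdx2 ChIP-seq peaks of RMES cells overlapped the region just before the transcription start of some of these Hox genes, and 3 are shown because Hoxa7 and Hoxd4 were mouse-higher while Hoxb8 was not called. The windows hold bases before a RefSeq transcription start on GRCm38.p6, up to the first GENCODE exon of any transcript that they meet, and each is overlapped by 1 peak. Hoxa7 lies on the minus strand at chr6:52218712-52218823, within the span of the gene and intronic for another of its transcripts. Hoxd4 lies on the plus strand at chr2:74721728-74721977, likewise intronic. Hoxb8 lies on the plus strand at chr11:96281655-96281904, upstream of the gene. Capitals mark TTTAT or its reverse complement ATAAA, the core of the motif that Cdx factors bind.
Hoxa7: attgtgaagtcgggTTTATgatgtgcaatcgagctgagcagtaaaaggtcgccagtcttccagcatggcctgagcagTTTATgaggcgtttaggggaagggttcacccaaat
Hoxd4: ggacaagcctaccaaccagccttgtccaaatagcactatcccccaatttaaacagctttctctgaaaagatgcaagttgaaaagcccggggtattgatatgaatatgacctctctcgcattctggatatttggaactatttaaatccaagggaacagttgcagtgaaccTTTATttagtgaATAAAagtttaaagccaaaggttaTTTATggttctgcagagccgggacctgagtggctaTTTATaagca
Hoxb8: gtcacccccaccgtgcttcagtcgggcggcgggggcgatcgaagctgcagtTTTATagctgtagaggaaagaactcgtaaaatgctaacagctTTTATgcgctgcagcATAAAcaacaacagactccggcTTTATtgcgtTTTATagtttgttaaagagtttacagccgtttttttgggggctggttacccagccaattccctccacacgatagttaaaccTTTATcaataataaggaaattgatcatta
The letters TTTAT occurred on either strand 2, 4 and 6 times in these windows. They occurred at least once in 21.88% of the first 112 bases and in 37.26% of the first 250 bases of all 32851 RefSeq promoter windows, and in 78.09% of the 283 full windows of 300 bases that overlapped a peak. The allele ratio of Hoxb8 was 0.48 ± 0.23. Hoxd3, a further gene not called whose window overlapped a peak, had 1 match, and the number of matches was not compared with the allele ratio. The rat sequences were not analysed here.

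Over all tested genes with a position, a peak of the mouse genome lay within 30 kb of the start of 62.6% of mouse-higher genes, 62.7% of rat-higher genes and 65.7% of genes not called. The 3 shares differ by little and were not tested, since genes are not replicates.

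The allele difference was smaller after induction than in WT over the genome as a whole. The share of genes with over 2-fold between the alleles was 36.5% and 36.4% in the induced libraries and 48.3% and 47.9% in WT, over the same 12056 genes. Over 8-fold the shares were 7.58% and 7.80% against 15.9% and 15.8%. Of the genes tested in both states, 1725 were mouse-higher and 1723 rat-higher in both. A further 1110 genes were mouse-higher and 1083 rat-higher in WT alone, and 367 were mouse-higher and 417 rat-higher after induction alone. Calls in opposite directions were made for 72 genes that were rat-higher in WT and mouse-higher after induction, and for 57 of the reverse kind. The WT libraries varied less between themselves, at 2.43 and 2.20 times the sampling variance for mouse and rat against 6.54 and 6.25 times between mCdx2-OE and rCdx2-OE. This spread is taken within 1 allele, and the library block removes the part that both alleles share. It therefore does not say in which state more genes could pass the test. The allele ratios of the 2 libraries correlated at a Pearson r of 0.978 after induction and 0.977 in WT.

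Markers of cell types not sought were examined on the same scale. Of 6 neural genes tested, Nes and Pou3f2 were mouse-higher. Pou3f2 had 12 and 15 mouse counts against 2 and 0 rat counts, and its call was lost without rCdx2-OE and with DESeq2. Nes, an intermediate filament gene also expressed in ESCs, was at 17.8 mouse and 1.33 rat in mCdx2-OE and at 19.5 and 1.20 in rCdx2-OE. Of 12 feeder fibroblast genes 6 were tested, and 3 were mouse-higher and 2 rat-higher. Col1a2 had 28 and 23 mouse counts and no rat count, and Dcn had none on either allele. The summed mouse share of the list was 39.8% and 39.0%. Their part in the mouse-higher calls was not tested.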

How the data were processed

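RNA-seq libraries of polyadenylated RNA were strand-specific. The authors aligned read pairs with STAR (2.7.0d) to mm10 and to rn6, assigned them to 1 genome by edit distance, with no statement on ties, and deposited raw gene counts from featureCounts on genes of Ensembl without pseudogenes for mouse, beside a Length for each gene. The rat annotation is not given in the sources used here. The deposited ChIP-seq peaks, called with MACS2 on mm10, were used by position. A further 28 sample columns of the deposited tables, among them those of mouse ESCs, were not used here. Counts were fitted with edgeR 4.0.16 and limma 3.58.1 in R 4.3.3 after filterByExpr, with offsets from Length and TMM factors of length-divided counts, and terms for library and allele. Standard errors come from the log2 ratio and the F statistic. The interaction was fitted on all 4 libraries. An allele at 0 in both induced libraries was set to 3 counts per library. An allele with counts, but no more than 3 in either induced library, gave an exact binomial 95% counting interval, which covers counting error only. WT and induced levels were scaled separately. DESeq2 1.42.0 was an alternative, and the fit was tested on simulated data. Positions are GENCODE on GRCm38. Other steps used Python 3.11.15 with pandas 2.3.3, matplotlib 3.10.9, scipy 1.17.1 and numpy 2.4.6. Genes named are members of the 14 lists, genes the study names, and the 5 largest changes per direction in both tests among genes with at least 50 counts and lengths within 1.25 times. The genes and lists were chosen with earlier results of these data known. Leaving out chromosomes 16 and 18 and the held calls were alternatives added after seeing the data. Some list members are not reported here.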

Additional observations from a re-analysis of the deposited data

Results flagged for a closer look

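The allele ratio after induction differed from that in WT for many genes: the interaction of edgeR's quasi-likelihood fit was past an adjusted p of 0.05 toward mouse for 5052 genes and toward rat for 3656. Of the named genes, 6, called in opposite directions in the 2 states, stood out by this test. Toward mouse the log2 interaction was 9.08 for C3, a complement gene, 6.59 for the matrix gene Postn, 6.55 for Krt19, 4.59 for Wnt8a and 4.55 for the mucin gene Muc13, and toward rat it was -4.88 for Cyp11a1. The counts behind Postn were 33 and 56 for mouse and 0 and 1 for rat after induction, and those behind C3 were 0 for mouse in both WT libraries, so both fitted values depend on the prior count. The mouse share of Muc13, on mouse chromosome 16, went from 29.6% and 30.6% in WT to 90.7% in both induced libraries, opposite to the shift of the median of that chromosome. Rat mitochondrial transcripts, which no comparison uses, were at 70440 CPM in mCdx2-OE and 68842 CPM in rCdx2-OE, above the 26.0 and 33.9 CPM of the WT libraries. The part of the mitochondrial and chromosome 16 differences in these interactions was not tested.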

How the results depend on the processing

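Counts of allele calls after induction (2588 mouse-higher, 2543 rat-higher) were 1687 and 4427 with 1 total per library for both alleles, 689 and 650 among the 3820 genes of similar length, and 5670 and 5601 at any fold, and stayed within 1.5 times under the other alternatives run. Of the list members, 33 were mouse-higher with the common total and 33 were held calls, 13 mouse-higher and 14 rat-higher were found among genes of similar length, and 48 were rat-higher at any fold. The interaction counts were 1172 and 1233 among genes of similar length and 1759 and 1653 at over 2-fold, and toward mouse 2986 to 4838 when 1 library was left out. The mouse share of interaction calls was 58.0%, against 41.7% with the common total, 49.8% with DESeq2, 48.7% among genes of similar length and 41.1% and 41.5% without WT library 1 or 2. Without the division by length the allele ratio of Tead4 was -0.25. With the common total the interactions of Atp1b1, Klf4, Klf5 and Lin28a were -0.00573, -0.12, -0.0928 and -0.19, and that of Lin28a was -0.14 among genes of similar length. Leaving out 1 library gave -0.00756 to 0.28 for Atp1b1, -0.15 to 0.23 for Klf4, -0.11 to 0.21 for Klf5 and -0.20 to 0.0126 for Lin28a. The cause was not tested, beyond the fewer genes tested at similar length. Of the 98 called named genes, DESeq2 kept 91 calls, no division by length 83 and the common total 80, with no reversal other than Tead4. A fit without the replicate block, which pairs the 2 alleles of a library, gave 2573 and 2540 allele calls and 4382 and 3183 interactions. Genes of mouse chromosomes 16 and 18, left out after seeing the data, changed the counts to 2436 and 2404, and to 4656 and 3415.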

Other observations

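Outside the lists, among genes with at least 50 counts and similar lengths of the mouse and rat models, the largest allele differences after induction were of genes with at most 2 counts on 1 side. Ncbp2, a subunit of the nuclear cap-binding complex, had 2146 and 2054 mouse counts and no rat count, which is at least 1015-fold higher for mouse, and Dr1, Pigg, Rmnd5b and Mogs likewise had no rat count in any of the 4 libraries. On the rat side Fcrla had 9584 and 8901 rat counts and 0 and 2 mouse counts, Wfdc6a and Zbtb9 had no mouse count in any of the 4 libraries, and Enpp7 and the endothelial tight junction gene Cldn5 had none after induction. For genes at 0 in all 4 libraries, a silent allele and an annotation or assignment that misses its reads cannot be told apart.

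The largest interactions toward rat included Morc1, a germ cell gene on mouse chromosome 16, which had no rat count in WT and 55 and 58 rat counts after induction. Fer1l5 had 10 and 18 mouse counts in WT and none after induction, when the rat allele had 153 and 182. Tff2, a trefoil factor gene of stomach, had 132 and 145 rat counts after induction against 0 and 1 for mouse. Toward mouse, Moxd1 had 0 and 2 mouse counts in WT and 319 and 334 after induction, with 441 and 404 rat counts beside them. Casq1, Map7d3 and Gimap8 also went from at most 1 mouse count in each WT library to between 25 and 176 in each induced library.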
